A study of Mus musculus with 8 samples.

Results

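The erythroid priming genes described here are 10 transcripts of the red cell programme that can be found at low level in multipotent progenitors (MPPs): the adult beta globins Hbb-bt and Hbb-bs, the adult alpha globins Hba-a1 and Hba-a2, the carbonic anhydrases Car1 and Car2, the transcription factors Klf1 and Gata1, the erythropoietin receptor Epor and the transferrin receptor Tfrc. They were chosen by name, with earlier results of these data known. Their Ensembl identifiers were looked up by symbol, which gave 10 of the 37980 gene rows of the expression table. All 10 had a row. RNA was sequenced from aliquots of 1000 MPPs of C57BL/6 mouse bone marrow, gated as Lin-CD48-ckit+Sca1+CD135+CD150-, where the lineage antibodies include the red cell antigen Ter119. The 4 NA MPP libraries came from NA mice (NA LSL/+; Vav-Cre), in which Cre under the blood cell promoter Vav switches on the Nup98-Hoxa10hd fusion gene from the Rosa26 locus. The 4 WT MPP libraries came from age-matched CD45.2 wild-type mice, with no agent given to either group and with no age in the labels. Libraries are named by group and number, from NA1 to WT4, and the labels do not say whether each came from its own mouse, so p-values measure only the spread between these libraries.

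Values are normalised counts, meaning estimated reads that the authors had divided by a size factor for each library. Depth was estimated at 3876906 to 4916987 reads per library, and 1 read was worth 0.888 to 1.18 normalised counts. A floor of 3 reads lay between 2.66 and 3.54 normalised counts, and it covers counting error only, since the amplified molecules carried no identifiers. Hoxa10, the gene that gives the fusion its homeodomain, was higher in NA MPPs (298 to 370.6 normalised counts against 129.6 to 149.1 in WT MPPs, log2 fold change 1.21, adjusted p = 2.57e-05), and Nup98 did not pass the test (adjusted p = 0.443). Kit, Flt3, Cd34 and Ly6a of the MPP gate were at 1103 normalised counts or more in all 8 libraries, while Cd48 and Slamf1 were at 83.8 or less, with Cd48 (log2 fold change -1.58, adjusted p = 0.00711) and Ly6a (-0.28, adjusted p = 0.0257) lower in NA, calls that were lost without NA4 and WT4 (adjusted p = 0.0675 and 0.163). Xist was 868.6 or more in the WT libraries and 2.80 or less in the NA libraries, and Eif2s3y was 516.2 or more in the NA libraries and at most 0.888 in the WT libraries, so that sex and genotype cannot be told apart. The fourth library of each group stood apart in another way: of the genes with at least 5 reads in each of the other 3 libraries of its group, 2 were at 0 in NA4 and 1 in WT4, against 24 to 71 in the other libraries. NA4 and WT4 therefore hardly differed from their group in which genes were present. Whether they are independent samples was not tested, and if they are not, n is 3 rather than 4 in each group, so the main results are also given without them. S100a9, a neutrophil transcript, reached 158.3 in WT3 and 47.9 in WT4, and was 18.5 or less in the other 6 libraries.

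Red cells arise from multipotent progenitors through megakaryocyte-erythroid progenitors and erythroid burst- and colony-forming cells. GATA1 and KLF1 switch on the programme, erythropoietin acts through its receptor to keep the cells alive, transferrin receptor brings in iron for heme, and the globin chains with heme form haemoglobin in the last nucleated stages. Progenitors that are still multipotent can hold low amounts of such transcripts, which is called priming. In bulk RNA, fewer cells of a type and less RNA per cell cannot be told apart.

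Among the 10 genes, beta globin Hbb-bt was lower in NA MPPs, with a mean of 41.2 ± 12.0 normalised counts against 163 ± 24.0 in WT MPPs (SD, n = 4 each). Car1 was at 0 in all NA libraries and above the floor in 3 of the 4 WT libraries. Car2 was abundant in both groups and did not pass the test. Tfrc was lower in NA in each library but did not pass the test, and the other 6 genes held few reads. The WT mean was the higher in 9 of the 10 genes, the exception being Car2, where 51.2% of all 17710 genes above 0 had the higher mean in WT. For Hba-a1 and Hba-a2 this rested on 1 or 2 reads, and it turned for Hba-a1 without NA4 and WT4 (0.616 in NA and 0.378 in WT) and for Hba-a2 without WT2. Only 3 of the 10 reached the test, which asked for 10 or more normalised counts in 4 or more libraries, and 1 of those 3 was called lower and 0 higher in NA at an adjusted p below 0.05. Among all 11451 genes tested, 7.87% were called lower, 10.1% higher and 17.9% in either direction. With no filter on low values, 2 of the 10 genes were called, Hbb-bt and Car1, both lower, against 3.98% of 17710 genes called lower and 8.89% called at all.

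**Figure D1:**
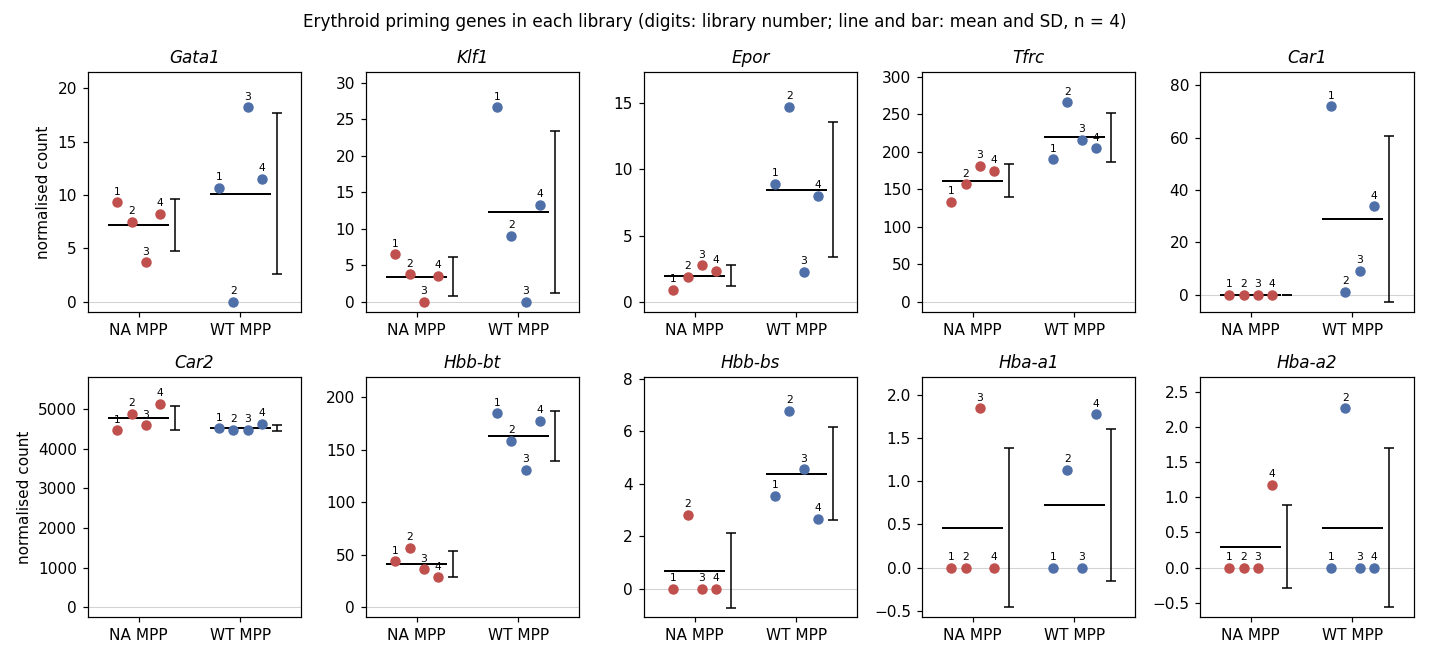
Normalised counts of the 10 erythroid priming genes (y axis, linear, a scale for each panel) in the 4 NA MPP and 4 WT MPP libraries; digits give the library number, horizontal lines the mean and bars the SD (n = 4). Hbb-bt lay between 28.3 and 56.4 in NA and between 131 and 185 in WT, Car1 was 0 in all NA libraries, and Car2 lay between 4470 and 5131 in both groups.

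Hbb-bt and Hbb-bs are the adult beta globin genes of the C57BL/6 strain. Hbb-bt (ENSMUSG00000073940) lies at chr7:103812524-103813996 and Hbb-bs (ENSMUSG00000052305) at chr7:103826534-103828096, both on the minus strand of GRCm38 in GENCODE M21. Their coding sequences are so close that reads can be shared out between the rows, which is why both are printed over the end of the coding sequence, from base 387 to the stop at base 444, with the base that differs in capitals.
Hbb-bt: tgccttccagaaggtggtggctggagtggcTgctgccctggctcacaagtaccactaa
Hbb-bs: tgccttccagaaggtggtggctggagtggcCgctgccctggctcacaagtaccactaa
Over the 444 coding bases the genes differed at 1 base, base 417, and were 99.8% identical. Of all windows of 50 bases in the 703-base Hbb-bt transcript, 58.3% were also in the 628-base Hbb-bs transcript, and 65.8% the other way round. Reads from those windows cannot be placed by sequence, so the split between the rows depends on how the authors' counter assigned them.

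Hbb-bt stood at 43.9, 56.4, 36.01 and 28.3 normalised counts in NA1 to NA4. It stood at 185, 158, 131 and 178 in WT1 to WT4. Every NA library was below every WT library, and the gap between the groups was wider than the range within either. Values of the groups also failed to overlap, in this direction, for 10.5% of all genes tested. The WT mean was 3.96 times the NA mean. The log2 fold change was -1.99 (SE 0.231, 95% interval -2.485 to -1.497, adjusted p = 6.79e-05 by limma). Hbb-bt entered the test through both groups, since its lowest library, NA4, was above the minimum of 10. Without NA4 and WT4 the log2 fold change was -1.79 (adjusted p = 0.0028), with means of 45.4 ± 10.3 and 158 ± 26.9 (SD, n = 3 each). WT3, the library with the most S100a9, was the lowest of the WT libraries for Hbb-bt, while WT4, with the next most, was above WT2 and WT3. A link between these transcripts was not tested.

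Hbb-bs held 0, 3, 0 and 0 reads in NA1 to NA4 and 4, 6, 4 and 3 reads in WT1 to WT4. In normalised counts it reached 2.82 in NA2 and lay between 2.66 and 6.80 in the WT libraries, so NA2 lay just above WT4, the lowest of the WT libraries. It was above the floor in 3 libraries, all WT. With no filter its log2 fold change was -1.89 and did not pass (adjusted p = 0.0545). Summing both beta globins as 1 row gave a log2 fold change of -2.01 (adjusted p = 6.83e-05), close to that of Hbb-bt on its own, so the difference did not depend on the split of reads between the rows. Hbb-bt made up 100%, 95.2%, 100% and 100% of the beta globin counts in NA1 to NA4 and 98.1%, 95.9%, 96.6% and 98.5% in WT1 to WT4. The means of 98.8 ± 2.38% and 97.3 ± 1.24% (SD, n = 4 each) differed by 1.52 percentage points in an exact two-sided permutation test over the 70 label assignments (p = 0.229, 0.229 adjusted over the 2 globin tests), where the smallest p possible is 0.0286.

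The adult alpha globins Hba-a1 (ENSMUSG00000069919, chr11:32283511-32284465, plus strand) and Hba-a2 (ENSMUSG00000069917, chr11:32296489-32297298, plus strand) are duplicate genes that encode the partner chain of haemoglobin. They too differ at 1 coding base, base 381 of 429, shown in capitals within bases 351 to 411.
Hba-a1: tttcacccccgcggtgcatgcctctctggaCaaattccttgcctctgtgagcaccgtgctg
Hba-a2: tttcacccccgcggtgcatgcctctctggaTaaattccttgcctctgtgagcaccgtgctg
Hba-a1 held 2 reads in NA3, 1 in WT2 and 2 in WT4 and none in the other 5 libraries. Hba-a2 held 1 read in NA4 and 2 in WT2 and none in the other 6 libraries. Neither was above the floor of 3 reads in any library, so that a difference between groups was not detectable at this depth. Over all 8 libraries the alpha globins summed to 5 and 3 reads, where Hbb-bt had 833. The log2 ratio of alpha to beta globin counts, with 1 added to each sum, was -4.71 ± 1.15 in NA and -6.48 ± 1.05 in WT (SD, n = 4 each). The difference of 1.77 had p = 0.114 in the exact two-sided permutation test (0.228 adjusted over 2 tests), and since the alpha counts were at or under the floor it followed the beta counts. Of the 6 embryonic and other globin genes, 5 (Hbb-y and Hbb-bh1 among them) were at 0 in all 8 libraries and Hbq1a held 1 read in WT1.

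The 250 bases before the RefSeq start are printed for Hbb-bt, which was called, and for Hbb-bs, which shares its coding sequence and held few reads, 5′ to 3′ on the strand of the gene (GRCm38.p6, Hbb-bt at chr7:103813924-103814173 and Hbb-bs at chr7:103827929-103828178, both minus strand). Capitals mark matches to AGATAA or TGATAA (the GATA motif, both strands), CACCC (the box bound by KLF1 and other Krueppel-like factors, both strands), CCAAT (both strands) and TATAAA or ATATAA (forward strand only), and overlapping matches are joined. GENCODE places the start of Hbb-bt further upstream, inside this window. The Hbb-bs gene in GENCODE also reaches into its window, while its coding transcript used above starts at 103827928, next to the window.
Hbb-bt: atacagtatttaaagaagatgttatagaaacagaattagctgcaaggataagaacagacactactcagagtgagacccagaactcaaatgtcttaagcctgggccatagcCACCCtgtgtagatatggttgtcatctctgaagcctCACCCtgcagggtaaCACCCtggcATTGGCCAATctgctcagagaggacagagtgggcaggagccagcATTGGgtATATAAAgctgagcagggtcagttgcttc
Hbb-bs: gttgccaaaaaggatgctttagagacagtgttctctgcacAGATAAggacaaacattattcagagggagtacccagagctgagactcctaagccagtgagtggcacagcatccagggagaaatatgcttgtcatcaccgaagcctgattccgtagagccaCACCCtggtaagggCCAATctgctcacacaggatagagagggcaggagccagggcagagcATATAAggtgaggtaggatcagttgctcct
The Hbb-bt window held 3 CACCC matches at 140, 104 and 89 bases before the start and 3 CCAAT matches. The Hbb-bs window held 1 CACCC match, 1 CCAAT match and 1 GATA match, the last at 210 bases before the start. No GATA match stood in the Hbb-bt window, which says only that these letters are not in these 250 bases. Of the 10 genes, 8 had a promoter in the RefSeq table, with 9 windows since Tfrc had 2 starts, and Car1 and Car2 had none. CACCC was in 9 of the 9 windows, against 51.3% of 27025 mouse promoters of the same length. The GATA motif was in 5 of 9 (17.0% of all promoters), CCAAT in 6 of 9 (34.5%) and TATA in 4 of 9 (11.2%), the 4 being the globin genes. Hba-a1 and Hba-a2 share nearly all of their window, so the windows are not independent of each other. A match is a description and was not tested as a binding site.

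Car1 and Car2 encode carbonic anhydrases, which interconvert carbon dioxide and bicarbonate. Both lie on chromosome 3, Car1 (ENSMUSG00000027556) at chr3:14766216-14808368 on the minus strand and Car2 (ENSMUSG00000027562) at chr3:14886273-14900770 on the plus strand, and Car1 is known as a marker of early erythroid progenitors. Car1 held 0 reads in each of the 4 NA libraries. In WT1 to WT4 it held 81, 1, 8 and 38 reads, or 71.9, 1.13, 9.11 and 33.7 normalised counts. No NA library reached any WT library, but WT2 was under the floor of 3 reads and WT1 alone held most of the WT reads. The WT mean was 29.0 ± 31.8 (SD, n = 4), and without WT1 it was 14.7. Set against 3 reads in each NA library, the WT mean of Car1 was 9.71 times that floor. It was 9.79 times without NA4 and WT4 and 4.91 times without WT1, and leaving out WT1 and WT4 together was not tried. These ratios take as exact a WT mean that WT1 and WT4 carry, so they are not lower bounds. Car1 did not reach the test filter, and with no filter its log2 fold change was -3.93 (adjusted p = 0.0365), a value that depends on the added 1.

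Car2 stood at 4470, 4891, 4597 and 5131 normalised counts in NA1 to NA4 and at 4513, 4472, 4479 and 4626 in WT1 to WT4. The ranges overlapped, with the highest values in NA4 and NA2 and the lowest in NA1. The means were 4772 ± 297 and 4523 ± 71.4 (SD, n = 4 each). The log2 fold change was 0.08 (SE 0.068, 95% interval -0.071 to 0.222, adjusted p = 0.476), and the WT libraries varied less than the NA libraries. Car2 was the most abundant of the 10 genes in every library, while Car1 was at 0 in NA.

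Tfrc (ENSMUSG00000022797, chr16:32608920-32632794, plus strand) encodes transferrin receptor 1, which takes up iron bound to transferrin and is also used by dividing cells that are not erythroid. It stood at 134, 157, 182 and 175 normalised counts in NA1 to NA4 and at 190, 266, 216 and 205 in WT1 to WT4. The groups did not overlap, but NA3 and WT1 were nearly level. The means were 162 ± 21.6 and 219 ± 33.0 (SD, n = 4 each). The log2 fold change was -0.44 (SE 0.153, 95% interval -0.763 to -0.108) and did not pass after adjustment over all genes (adjusted p = 0.0634). It passed when libraries were scaled by their total count (-0.50, adjusted p = 0.0307) and without NA3 (-0.495, adjusted p = 0.047), and did not without NA4 and WT4 (-0.50, adjusted p = 0.19).

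**Figure D2:**
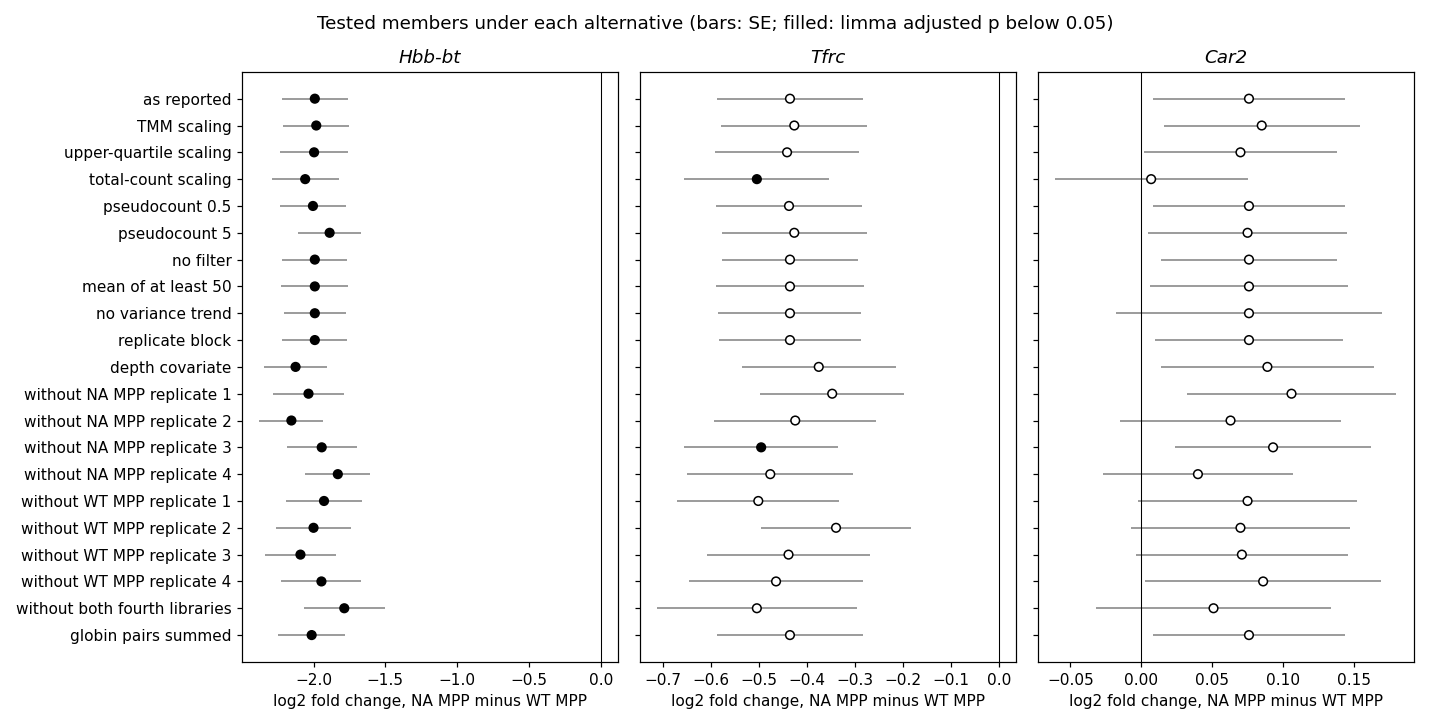
Log2 fold change, NA MPP minus WT MPP (x axis, a scale for each panel), of Hbb-bt, Tfrc and Car2 under each way of processing (y axis); bars are SE and filled points had an adjusted p below 0.05 by limma. Hbb-bt lay between -2.154 and -1.786 and was filled in all 20 alternatives, Tfrc was filled in 2 of 20, and Car2 in none.

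Epor (ENSMUSG00000006235, chr9:21958897-21963506, minus strand) encodes the receptor through which erythropoietin signals. It held 1, 2, 3 and 2 reads in NA1 to NA4, at or under the floor in all 4. In WT1 to WT4 it held 10, 13, 2 and 9 reads, or 8.88, 14.7, 2.28 and 7.99 normalised counts. WT1, WT2 and WT4 were above every NA library, and WT3 lay within the NA range of 0.934 to 2.77. The means were 1.99 ± 0.790 in NA and 8.47 ± 5.09 in WT (SD, n = 4 each). With no filter the log2 fold change was -1.51 and did not pass (adjusted p = 0.123).

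Klf1 (ENSMUSG00000054191, chr8:84901928-84905291, plus strand) encodes the Krueppel-like factor that binds CACCC boxes of globin and other red cell genes. It held 7, 4, 0 and 3 reads in NA1 to NA4 and 30, 8, 0 and 15 reads in WT1 to WT4. In normalised counts these were 6.53, 3.76, 0 and 3.54 in NA and 26.6, 9.06, 0 and 13.3 in WT. WT1, WT4 and WT2 were above all NA libraries, while both groups held a library at 0, NA3 and WT3. The means were 3.46 ± 2.68 and 12.3 ± 11.1 (SD, n = 4 each), and the WT mean without WT1 was 7.46. No difference was detected with no filter (log2 fold change -1.15, adjusted p = 0.551).

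Gata1 (ENSMUSG00000031162, chrX:7959260-7978071, minus strand) encodes the zinc finger factor that red cells, megakaryocytes, mast cells and eosinophils need. It stood at 9.33, 7.52, 3.69 and 8.27 normalised counts in NA1 to NA4 and at 10.7, 0, 18.2 and 11.5 in WT1 to WT4. The 0 in WT2 lay under all NA values, and WT3, WT4 and WT1 lay above them, so the groups overlapped through WT2. The means were 7.20 ± 2.46 and 10.1 ± 7.53 (SD, n = 4 each). No difference was detected with no filter (log2 fold change 0.11, adjusted p = 0.958), where the fitted sign, on the log scale, was opposite to that of the means. NA3 was the lowest NA library for both Klf1 and Gata1, while in WT the libraries at 0 differed, WT3 for Klf1 and WT2 for Gata1.

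Compared per kilobase of transcript (the longest coding transcript in GENCODE M21), the level of Car2 was 2670 normalised counts per kilobase in NA and 2530 in WT. Hbb-bt came next with 58.5 in NA and 232 in WT, and Tfrc followed with 33.1 and 44.9. In each group, Car2, Hbb-bt and Tfrc kept this order without overlap between libraries. In WT, Car1 (24.3), Klf1 (8.01), Hbb-bs (6.99), Gata1 (5.31) and Epor (4.81) came next, and their ranges over libraries overlapped. In NA the next were Gata1 (3.79), Klf1 (2.26), Epor (1.13) and Hbb-bs (1.12), which overlapped as well, and Car1 was at 0. Hba-a1 (0.660 in NA and 1.04 in WT) and Hba-a2 (0.533 and 1.02) were the lowest in WT. Gata2, the factor that precedes Gata1 in progenitors, was at 327 per kilobase in NA and 260 in WT.

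Genes with a profile over the 8 libraries most like that of each tested member were looked up among 8999 others that averaged 50 or more normalised counts, by the root mean square difference of centred log2 values. For Hbb-bt these were Ncf1, a subunit of the phagocyte NADPH oxidase, at 0.297 and Oas2, an interferon-induced enzyme, at 0.307, where the median over all candidates was 1.05. Ncf1 averaged 45.8 normalised counts in NA and 129 in WT, and Oas2 135 and 430. For Car2 they were Ahcyl1 at 0.0321 and Gclm at 0.0421 (median 0.260). For Tfrc they were ENSMUSG00000085362 at 0.0687 and Tbc1d16 at 0.0753 (median 0.361). These are descriptions over 8 libraries.

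The other genes of the red cell programme were taken from 7 lists with 108 genes, of which 107 had a row and 76 were tested. The lists were written with earlier results of these data known, so the shares called in them are not independent of these data. Of those 76, 17 were called higher and 6 lower in NA, or 30.3%. Among all genes tested, 10.1% were called higher, 7.87% lower and 17.9% in either direction, shares that also apply to the lists below. The median log2 fold change of the 76 was 0.019, against -0.011 over all genes tested. Scaling by total count moved the split to 11 higher and 10 lower, and that of all genes from 1152 higher and 901 lower to 925 and 1314. Without NA4 and WT4, 8 were called higher and 3 lower, where all 11451 genes gave 379 and 145. With no filter 10 of 98 were called higher and 6 lower, where 8.89% of 17710 genes were called. Alas2, the erythroid form of the rate-limiting enzyme of heme synthesis, and Slc4a1, the band 3 anion exchanger, were at 0 in all 8 libraries.

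**Figure D3:**
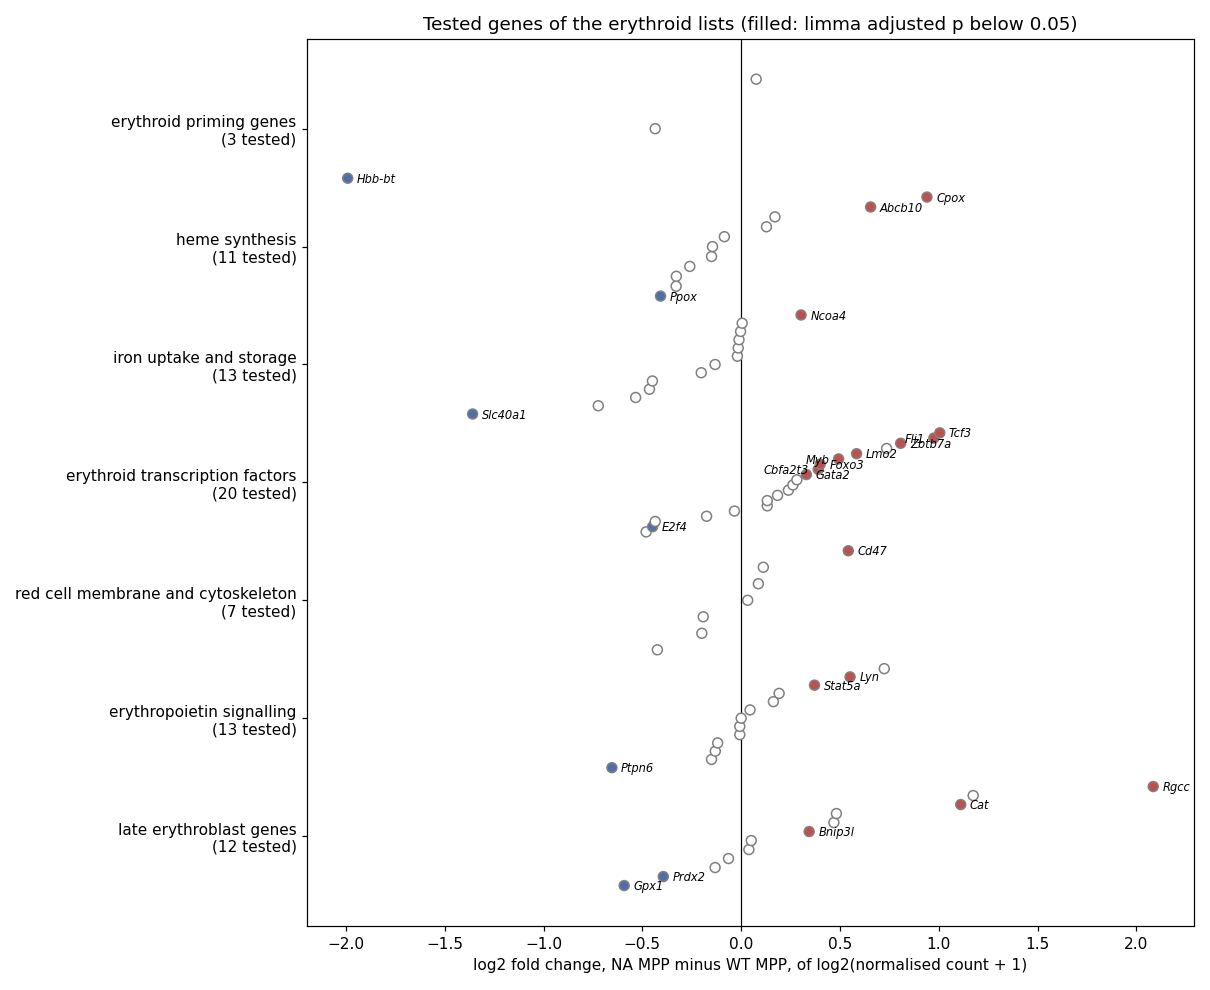
Log2 fold change, NA MPP minus WT MPP, of log2(normalised count + 1) (x axis) for each tested gene of the erythroid lists (rows); filled points had an adjusted p below 0.05 by limma, red for higher and blue for lower in NA, and are named. Hbb-bt, at -1.99, was the lowest of all genes shown, and 8 of the 20 tested transcription factors were called higher, against 10.1% of all genes tested. The lists were written with earlier results of these data known.

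Among erythroid transcription factors other than the members, 8 of 20 tested genes were called higher and 1 lower, with a median log2 fold change of 0.27. The list is not limited to red cell factors, since Fli1 is a megakaryocyte factor and Gata2 was also counted with the mast cell genes. The members Klf1 and Gata1 are not in it and did not reach the test, so this count does not cover them. Tcf3, the E protein that partners Tal1, rose from 127 ± 32.6 in WT to 252 ± 28.4 normalised counts in NA (SD, n = 4 each; log2 fold change 1.005, adjusted p = 0.00156). Fli1, an ETS factor of megakaryocytes that opposes Klf1, rose from 236 ± 16.6 to 466 ± 58.2 (0.98, adjusted p = 0.000108). Zbtb7a, a repressor of embryonic and foetal globin genes, rose from 110 ± 10.5 to 196 ± 37.1 (0.81, adjusted p = 0.00495). Lmo2, the adaptor of the Gata and Tal1 complex, was the most abundant of the list and rose from 8230 ± 234 to 12340 ± 529 (0.58, adjusted p = 4.52e-05). Myb, needed for the growth of early progenitors, rose by 0.49 (adjusted p = 0.00333), and Foxo3, Cbfa2t3 and Gata2 were the other 3 that rose. E2f4, a cell cycle regulator needed for red cell maturation, fell by 0.45 on the log2 scale (adjusted p = 0.0497). Without NA4 and WT4, Tcf3, Fli1, Zbtb7a, Lmo2 and Myb still passed and the other 4 did not.

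Of 11 tested heme synthesis genes, 2 were called higher and 1 lower, with a median of -0.145. Cpox, coproporphyrinogen oxidase, rose by 0.94 (adjusted p = 0.0294) and Abcb10, a mitochondrial transporter, by 0.66 (adjusted p = 0.0257), while Ppox, the enzyme of the step after Cpox, fell by 0.41 on the log2 scale (adjusted p = 0.0296). Urod, uroporphyrinogen decarboxylase, had -0.14 (adjusted p = 0.625). Of 13 tested genes of iron uptake and storage, 1 was called in each direction, with a median of -0.132. Slc40a1, the iron exporter ferroportin, fell by 1.36 on the log2 scale (adjusted p = 0.0391), and Ncoa4, which delivers ferritin for breakdown, rose by 0.30 (adjusted p = 0.0415). The ferritin chains Fth1 (-0.13, adjusted p = 0.347) and Ftl1 (-0.01, adjusted p = 0.956) were the most abundant of that list and were not called. Without NA4 and WT4 none of these 5 calls held, with adjusted p between 0.0973 for Slc40a1 and 0.242 for Abcb10.

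In erythropoietin signalling, 13 genes were tested, 2 were called higher and 1 lower, and the median was 0.000. Lyn, a Src family kinase, rose by 0.55 (adjusted p = 0.033) and Stat5a, a transcription factor that the receptor activates, by 0.37 (adjusted p = 0.0407), while Stat5b had 0.000. Ptpn6, the phosphatase SHP-1 that dampens the receptor, was 806 ± 80.3 in NA against 1266 ± 62.2 in WT (SD, n = 4 each) and fell by 0.65 on the log2 scale (adjusted p = 0.000255). Ptpn6 alone of the 3 passed without NA4 and WT4. Under total-count scaling 0 genes of this list were called higher and 1 lower.

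Of 7 tested genes of the red cell membrane and cytoskeleton, Cd47, which protects cells from phagocytosis and is found on most cells, was called higher (0.54, adjusted p = 0.000353), 0 were called lower, and the other 15 of 22 genes were too low to test. With no filter 20 of them were tested, with 1 called higher and 2 lower and a median of -0.396, the 2 being Rhag (-2.46, adjusted p = 0.0269) and Dmtn, a protein that bundles actin (-2.38, adjusted p = 0.0433). Add1, adducin 1, had 0.03 (adjusted p = 0.854). Of 12 tested late erythroblast genes, 3 were called higher and 2 lower, with a median of 0.20, and all 5 are also used outside red cells. Rgcc, a regulator of the cell cycle, rose by 2.08 (adjusted p = 0.000202), Cat, catalase, by 1.11 (adjusted p = 1.67e-05) and Bnip3l, a receptor for mitophagy, by 0.34 (adjusted p = 0.0248). The peroxide-reducing enzymes Gpx1 and Prdx2 fell by 0.59 and 0.39 on the log2 scale (adjusted p = 0.000156 and 0.00254). Without NA4 and WT4 the calls of Cd47, Rgcc, Cat, Gpx1 and Prdx2 held, and that of Bnip3l (adjusted p = 0.144) did not. Rhag and Dmtn were under the filter of that fit, so their calls were not tested without NA4 and WT4.

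Erythroid genes under the test filter were looked at library by library. Of 38 such genes, the 7 untested members included, 23 were above the floor in at least 1 library. They summed to 60, 103, 74 and 68 reads in NA1 to NA4 and to 355, 107, 90 and 225 reads in WT1 to WT4. WT1 and WT4 were high, WT2 lay just above the NA range and WT3 within it. Whether WT4 is a high library apart from WT1 was not tested. WT2 and WT3 were also shallow (3876906 and 3960939 reads in all, the lower value in WT3), and so was NA4 (3887855). The part of depth in these sums was not tested. In normalised counts the sums were 56.0 to 96.8 in NA and 102 to 315 in WT, which did not overlap. These limits came from NA1, NA2, WT3 and WT1, so they stay the same without NA4 and WT4. Of the 23 genes, 12 were above the floor in WT libraries only and 0 in NA libraries only. These sums therefore depend in part on how the genes were kept. The same count over all untested genes was not made. WT1 and WT4 also held the most detected genes of all kinds (14816 and 15086). The NA libraries held 14176 to 14482, and WT2 and WT3 held 14296 and 14080. The number of these genes above the floor was 6, 9, 7 and 8 in NA1 to NA4 and 19, 13, 9 and 19 in WT1 to WT4.

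WT1 was the highest of the 8 libraries for 9 of the 23 genes, against 12.4% of all 3178 untested genes above the floor in at least 1 library. WT4 was second among WT libraries for 7 of those 9. Whether WT4 is independent of WT1 to WT3 was not tested, so its rank does not add to that of WT1. For Car1, WT4 was at 33.7 normalised counts and the mean of WT1 to WT3 was 27.4. Rhd, a blood group antigen, was at 0 in all NA libraries and at 28.4, 1.13, 0 and 12.4 normalised counts in WT1 to WT4. Its WT mean was 3.52 times the floor in NA, or 1.52 times without WT1. Aqp1, a water channel, stood at 25.8 in WT1, 4.53 in WT2, 0 in WT3 and 16.0 in WT4 and was at 0.940 or less in NA. Slc38a5, an amino acid transporter, was above 0 only in WT1 (13.3) and WT4 (5.33). Rhag, the partner of the Rh antigens, stood at 16.9, 5.66, 2.28 and 3.55 in WT1 to WT4 and at 0.940 or less in NA, so that its groups did not overlap. Epb42, a band 3 binding protein, also did not overlap (2.77 to 6.58 in NA and 7.93 to 15.9 in WT). How many untested genes had no overlap was not counted, which also holds for Car1. Rhag was above the floor in WT libraries only, so its separation depends in part on how the genes were kept. Ermap, a red cell adhesion protein, overlapped, with 12.2 in NA2 and 0 in WT3.

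**Figure D4:**
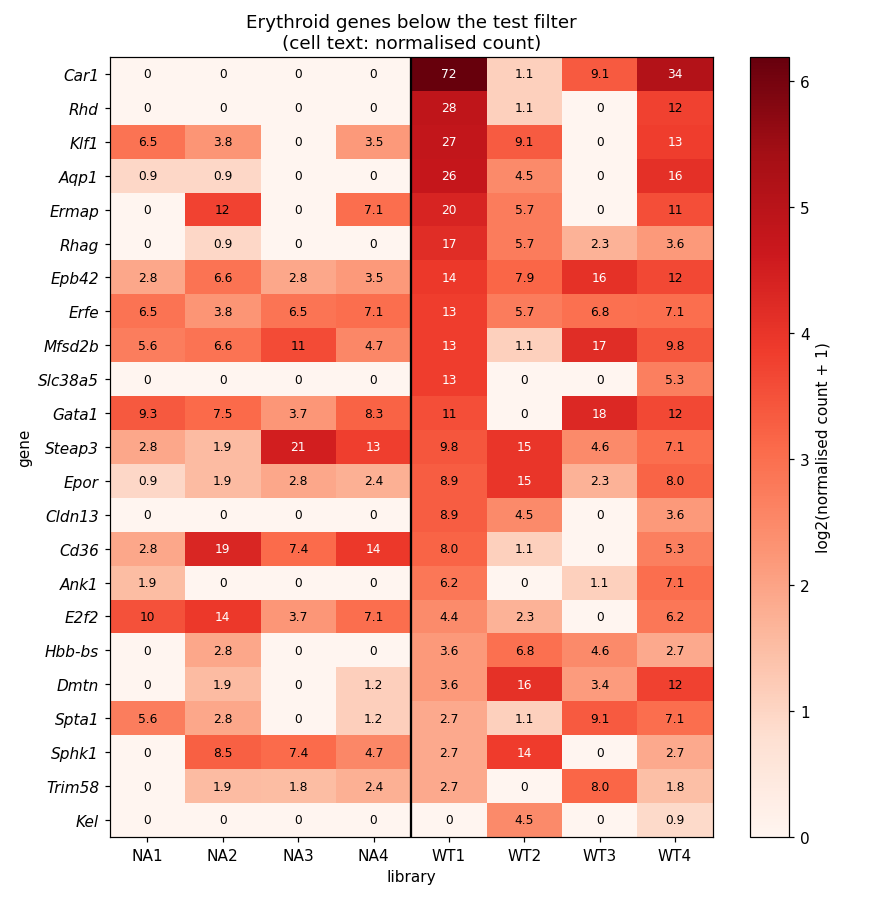
Normalised counts (cell text) and log2(normalised count + 1) (colour) of the 23 erythroid genes under the test filter that were above 3 reads in at least 1 library, in rows ordered by their value in WT1, with the 8 libraries in columns. Car1, Rhd, Slc38a5 and Cldn13 were at 0 in all NA libraries.

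Genes of other blood lineages were counted beside these results. Of all genes tested, 10.1% were called higher and 7.87% lower. Of 12 tested megakaryocyte genes, Cd9 was called higher and Thbs1 and Selp lower, and the list summed to 4289 to 4778 normalised counts in NA and 4254 to 4562 in WT, with Pf4 at 50.1 to 105 in all libraries. Of 2 tested mast cell and basophil genes, Gata2 was called higher, and the list summed to 1087 to 1271 in NA and 813 to 1023 in WT. Nearly all of that sum was Gata2 (1061 to 1244 in NA and 794 to 1001 in WT), which was also counted as an erythroid factor. Of the 12 genes of the list, 6 were at 0 in all 8 libraries, Fcer1a and Mcpt8 among them. Ms4a2 was at 0 in all NA libraries and at most 5.66 in WT. Of 8 tested neutrophil and monocyte genes 3 were called lower (Mpo, Irf8 and Prtn3), the list summed to 3527 to 3975 in NA and 4176 to 5415 in WT, and Elane was at 0 in all 8 libraries. Of 6 tested lymphoid genes 4 were called lower, with Dntt, the terminal transferase of early lymphoid cells, at -2.53 (adjusted p = 5.47e-06) and Ighm at -1.20 (adjusted p = 0.000383), and the list summed to 830 to 1035 in NA and 1410 to 1807 in WT. Without NA4 and WT4 the calls of Selp (adjusted p = 0.158), Gata2 (0.192), Mpo (0.143), Irf8 (0.186), Prtn3 (0.0881) and the lymphoid gene Lck (0.241) were lost, and those of Cd9, Thbs1, Dntt, Ighm and Satb1 held. The part of these lineages in the values of Hbb-bt and the other erythroid genes was not tested.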

How the data were processed

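RNA was measured in 4 NA MPP and 4 WT MPP libraries, grouped by sample title. The authors used bcl2fastq, RSEM and DESeq2 with mm10, per the submitters' processing notes and the study's methods, and versions are not given in the sources used here. The deposited table held a normalised signal per Ensembl gene, that is RSEM counts which the authors had divided by size factors, and replicates were not pooled. Between 98.2% and 98.7% of values under 200 reads were whole multiples of a step per library (tolerance 0.02 reads), and dividing by the step gave the estimated reads used for depth and floors. Fractional read assignments remained, so the planned count tests on recovered reads were not run. GENCODE M21 named 32916 of 37980 rows. Rows without a name held 0.779% of the summed values.

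Log2(normalised count + 1) was tested with limma 3.58.1 in R 4.3.3 with a mean-variance trend and no covariates, on genes that reached 10 normalised counts in 4 or more of the 8 libraries, and p-values were adjusted by Benjamini-Hochberg over all 11451 genes tested (threshold 0.05). On simulated data for this comparison, with 200 changed genes among 11451, 77.5% were recovered and 3.73% of the calls were false. Fold changes are on this log scale, which understates changes of low genes. Ratios per library were tested by exact permutation (SciPy 1.17.1). The members and the lists were chosen with earlier results of these data known. Named genes were all 10 members, up to 3 called genes in each direction and the 2 most abundant tested genes of each erythroid list, up to 2 in each direction of the other lists, genes at or under the floor in all libraries, and gate, fusion and sex checks. Foxo3, Cbfa2t3, Gata2 as an erythroid factor, Prtn3, Lck, Satb1, Dmtn, the genes of the low-count section and the neutrophil and platelet examples were chosen after their values were seen. Replicate numbers did not pair the libraries, since the correlations of deviations from the group means for numbers 1 to 4 were 0.087, 0.027, 0.013 and 0.158. Alternatives in scaling, pseudocount, filter, variance model, depth and libraries were tried. Promoter sequences came from RefSeq (GRCm38.p6).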

Additional observations from a re-analysis of the deposited data

Results flagged for a closer look

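Among 23 groups of 4 values examined, 5 held a value whose gap to the other 3 libraries exceeded Dixon's critical share of the range. The number met by chance, about 1.1, is for continuous values and does not apply to counts at the floor. In all 5 the other 3 libraries were equal, so the gap was the whole range and any read would meet the rule. Each rested on 1 to 3 reads against libraries at 0. Hbb-bs was 2.82 normalised counts in NA2 and 0 in the other NA libraries. Hba-a1 was 1.85 in NA3 and 0 in the others. Hba-a2 was 1.18 in NA4 and 0 in the other NA libraries, and 2.26 in WT2 and 0 in the other WT libraries. The Hbb-bt share of beta globin counts was 95.2% in NA2 and 100% in the other NA libraries, which follows from the same 3 reads of Hbb-bs.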

How the results depend on the processing

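Hbb-bt kept its direction and passed in all 20 alternatives (log2 fold change -2.154 to -1.786), and Car2 passed in none. The count of members called was 1, and 2 under total-count scaling (Hbb-bt and Tfrc) and with no filter (Hbb-bt and Car1), with a range of 1 to 2 when each library was left out (2 without NA3). Tfrc moved to -0.504 under total-count scaling and past the threshold, and ranged from -0.501 to -0.339 when each library was left out, passing only without NA3. Of the erythroid lists, 23 genes were called, 14 without the variance trend and 11 without NA4 and WT4, and 13 to 23 when each library was left out (13 without NA4 or without WT4, 14 without NA2). Over all genes, 2053 were called, 1125 without NA4, 1279 without WT4 and 524 without both. The alpha to beta globin difference was 1.80 with 5 added to each sum (exact p = 0.0286, the smallest possible). The alpha counts were at or under the floor in each library, so this ratio followed the beta counts. Beta globin counts did not overlap between groups (28.3 to 59.2 in NA and 135 to 188 in WT). The p-value therefore adds nothing on alpha globin to the result of Hbb-bt. Of the values of single genes and lists under the alternatives, 676 kept direction and side of the threshold, 114 no longer passed, 47 counts moved by over 1.5 times and 14 reversed. The cause of these changes was not tested.

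Reversed signs occurred only for genes that were not called. Ftl1 was 0.058 without NA4 and WT4 together and ranged from -0.100 to 0.083 when each library was left out. Add1 was -0.036 under total-count scaling and ranged from -0.049 to 0.109 when each library was left out. Stat5b was -0.006 under upper-quartile scaling, -0.069 under total-count scaling, -0.000 with a pseudocount of 5 and ranged from -0.061 to 0.053 when each library was left out.

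With the replicate number as a block, Hbb-bt was -1.99 (adjusted p = 0.000317), 1 member and 23 list genes were called, and no call of a member changed; the numbers share only a name. Hba-a1 and Hba-a2 were never above 3 reads in a library, and the part of depth or of reads shared between their rows was not tested. Count-based tests on recovered reads were not run.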
